A study of Rattus norvegicus with 19 samples.

Results

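Olig1, Olig2, Sox10, Nkx2-2, Pdgfra, Cspg4 and Mbp, 7 genes of the oligodendrocyte lineage, were taken by symbol from a deposited table of enhancer RNA in rat primary neuron cultures. All 7 were among the 17715 gene symbols of that table. They were paired with 187 of its 27538 transcriptionally active putative enhancers (TAPEs, intergenic stretches of open chromatin with RNA reads on both strands). These made up 226 of the 388605 pairs of a TAPE and a gene whose start lies within 1 Mb of it.

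Total RNA depleted of ribosomal RNA was sequenced in 19 libraries from Sprague-Dawley rats. Cortical, hippocampal or striatal tissue was taken at embryonic day 18 and the cells were cultured for 11 days, with about 250000 cells in a well. Cultures then received vehicle (neurobasal medium) or potassium chloride (KCl), which depolarises neurons, for 1 h. For KCl the sample labels gave 25 mM, whereas 10 mM stood in the text on the series. There were 3 vehicle and 3 KCl libraries for cortex, the same for hippocampus, and 4 vehicle and 3 KCl libraries for striatum by their titles. The study's supplementary methods give the striatum numbers per treatment the other way round, so the KCl values of striatum rest on the titles. Nothing in the labels tied a library to an animal, so the p-values below measure the spread between these libraries, which may be technical. The labels give no sort of cells. In such bulk samples fewer cells of a type and less RNA per cell cannot be told apart.

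Oligodendrocytes wrap axons of the central nervous system in myelin and arise from dividing precursor cells. Olig1, Olig2, Sox10 and Nkx2-2 are transcription factors of this lineage, Pdgfra (a receptor for platelet-derived growth factor) and Cspg4 (the NG2 proteoglycan) lie on the surface of its precursors, and Mbp (myelin basic protein) is made in quantity by myelinating cells. Neuron cultures from late embryonic brain are known to carry some glial precursors along with the neurons.

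Promoter sequences are given as a description, since 3 of the genes shared one order of regions and 3 another. RefSeq (assembly GRCr8) gave a promoter for Olig2, Nkx2-2 and Pdgfra, whose levels were highest in cortex, and for Cspg4, whose level was highest in hippocampus. The 250 bases before each start are printed 5′ to 3′ in lower case. Capitals mark the E-box CANNTG, the motif bound by basic helix-loop-helix factors such as Olig1 and Olig2, and CCAAT or its complement ATTGG, both searched on both strands.
Olig2, chr11:43961335-43961584, + strand: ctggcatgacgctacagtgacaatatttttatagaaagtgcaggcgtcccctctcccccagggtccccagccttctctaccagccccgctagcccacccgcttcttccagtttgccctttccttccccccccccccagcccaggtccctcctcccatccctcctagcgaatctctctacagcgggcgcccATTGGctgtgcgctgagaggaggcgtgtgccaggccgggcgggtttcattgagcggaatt
Nkx2-2, chr3:155075623-155075872, - strand: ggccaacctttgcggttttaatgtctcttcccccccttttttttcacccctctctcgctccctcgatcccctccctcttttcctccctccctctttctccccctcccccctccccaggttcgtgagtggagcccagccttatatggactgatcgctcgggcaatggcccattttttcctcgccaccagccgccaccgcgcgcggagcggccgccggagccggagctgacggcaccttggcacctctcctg
Pdgfra, chr14:33408517-33408766, - strand: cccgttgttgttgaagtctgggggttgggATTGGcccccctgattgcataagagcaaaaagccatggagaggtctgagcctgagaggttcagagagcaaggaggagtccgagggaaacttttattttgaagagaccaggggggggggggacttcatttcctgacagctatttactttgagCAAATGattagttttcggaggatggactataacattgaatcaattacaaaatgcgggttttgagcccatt
Cspg4, chr8:66160692-66160941, + strand: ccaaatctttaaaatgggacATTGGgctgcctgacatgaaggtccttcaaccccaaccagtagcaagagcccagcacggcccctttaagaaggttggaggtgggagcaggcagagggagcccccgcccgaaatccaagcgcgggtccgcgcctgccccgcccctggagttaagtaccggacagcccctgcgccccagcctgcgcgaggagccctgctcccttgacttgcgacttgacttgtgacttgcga
The E-box occurred in the Pdgfra window, starting 70 bases before the gene's start, and in no other of these windows, whereas 65.5% of all 33469 RefSeq promoter windows of this length held it. CCAAT or ATTGG occurred once in the Olig2, Pdgfra and Cspg4 windows and not in that of Nkx2-2, against 34% of all windows. The Olig2, Nkx2-2 and Cspg4 windows held 12, 17 and 14 CpG dinucleotides and the Pdgfra window 4, beside a median of 5 over all windows. Neither motif set Cspg4 apart from the other 3 genes. Cspg4 was the only gene of its order with a promoter here, and a part of promoter sequence in the orders was not tested.

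TAPE values were deposited as CPKM, reads per kilobase of TAPE scaled to the library's total reads (the usual RPKM unit). Gene values were not a column of the table, but each gene's correlations with its TAPEs were. These fixed the gene's profile over the 19 libraries, from which whole reads were recovered for 16737 genes, all 7 members included, and are given as RPM, the gene's reads scaled to library size without its length. Libraries held 46.4 to 72.5 M reads, and the members held from 2991 reads over all libraries (Nkx2-2) to 125386 (Olig1). Levels are therefore compared between libraries. Ratios and sums over genes are of reads without a correction for length, and are given to compare regions. A gene's share of such a sum is a share of reads. The title of cortex vehicle replicate 3 named cortex and its tissue entry striatum. The summed level of 6 cortex genes was 629 to 651 RPM over all 6 cortex libraries, this one included, and 2.02 to 2.6 over the striatum libraries. Without it 7, 6 and 7 member genes passed in the 3 pairs of regions, as with it, and 14 in place of 16 member TAPEs then depended on region.

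Of the 7 genes, 6 were lowest in striatum. Olig1, Sox10 and Cspg4 were highest in hippocampus, Olig2, Nkx2-2 and Pdgfra were highest in cortex, and Mbp stood apart with its lowest level in hippocampus. Region differences were tested with an exact two-sided permutation test over libraries, with Benjamini-Hochberg adjustment over all 16737 genes and a threshold of 0.05. Log2 differences with standard errors (SE) come from limma on log2(RPM + 0.1).

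**Figure D1:**
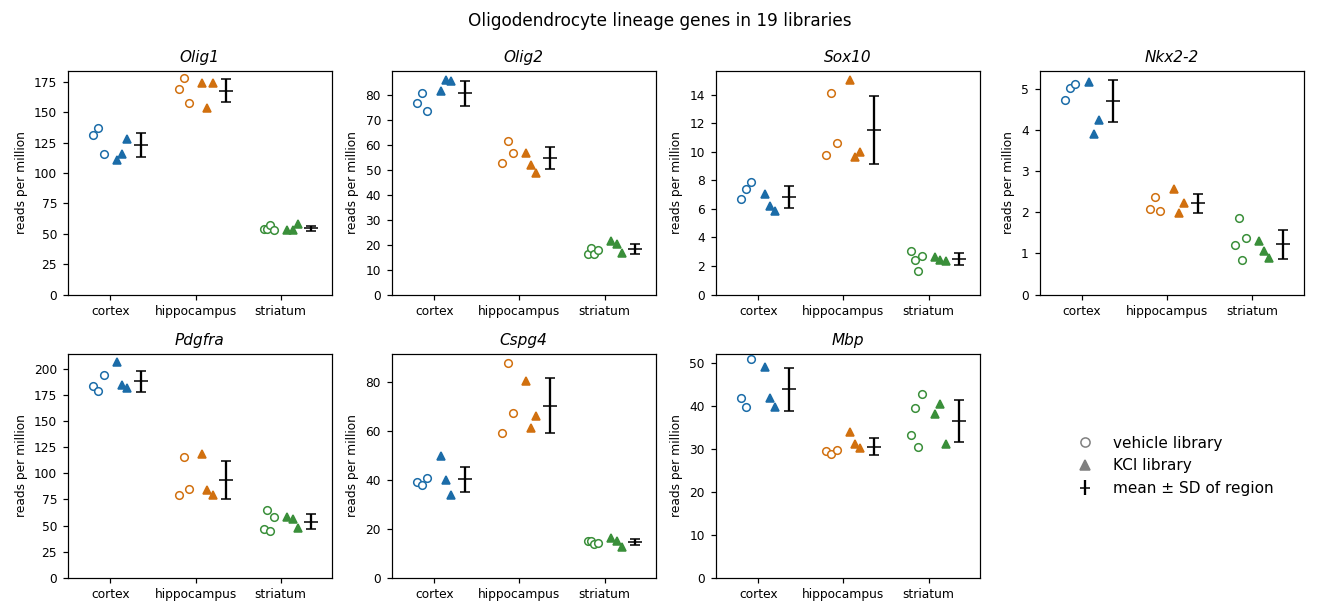
RPM (vertical axes, from 0) of the 7 genes in each of the 19 libraries by region. Open circles are vehicle and triangles KCl libraries, and bars give the mean ± SD of a region (n = 6, 6 and 7). All striatum libraries lie under those of the other regions for 6 genes, and for Mbp the hippocampus libraries reach 34 at most.

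Olig2 (chr11:31389514-31392890, Rn6, plus strand), which sets the identity of precursors, had 73.5, 81.1 and 86.3 RPM in the lowest, median and highest cortex library. The same 3 values were 48.9, 54.7 and 61.8 in hippocampus and 16.2, 18 and 21.6 in striatum. The 3 regions did not overlap. Olig2 was 0.56 ± 0.07 (log2 ± SE) higher in cortex than in hippocampus (exact permutation test, adjusted p = 0.0076) and 2.14 ± 0.07 higher in cortex than in striatum (exact permutation test, adjusted p = 0.0018), a ratio of means of 4.41.

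Olig1 (chr11:31428358-31430517, plus strand), its neighbour on the same chromosome and a close relative, had another order. Its lowest, median and highest libraries were at 111, 122 and 137 RPM in cortex, 154, 172 and 178 in hippocampus, and 52.8, 54.3 and 58 in striatum. Every hippocampus library was above every cortex library, and every cortex library above every striatum library. The log2 difference of cortex from hippocampus was -0.45 ± 0.05 (exact permutation test, adjusted p = 0.0076), and Olig1 was 1.61 ± 0.05 higher in hippocampus than in striatum (exact permutation test, adjusted p = 0.0015). Within a library the ratio of Olig1 to Olig2 reads was 1.53 ± 0.159 (SD, n = 6) in cortex, 3.08 ± 0.278 (n = 6) in hippocampus and 3.03 ± 0.409 (n = 7) in striatum. The highest cortex ratio, 1.7, lay under the lowest of the other regions, 2.48, while hippocampus and striatum overlapped.

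Sox10 (chr7:120393254-120403523, minus strand), a factor needed for maturation and myelin genes, had 5.83, 6.88 and 7.86 RPM in the lowest, median and highest cortex library. In hippocampus these were 9.61, 10.3 and 15, and in striatum 1.66, 2.45 and 3.05. The difference between hippocampus and striatum, 2.18 ± 0.13 on the log2 scale, was a ratio of means of 4.69 (exact permutation test, adjusted p = 0.0015). Cortex lay between, with a log2 difference of -0.73 ± 0.13 from hippocampus, and no library of a region reached the range of another.

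Nkx2-2 (chr3:141408798-141411170, minus strand), a homeodomain factor of the lineage, was the member with the fewest reads, 46 to 364 in a library. It had 3.9, 4.87 and 5.17 RPM in the lowest, median and highest cortex library, 1.99, 2.16 and 2.57 in hippocampus, and 0.846, 1.21 and 1.85 in striatum. Cortex was 1.05 ± 0.15 above hippocampus on the log2 scale and 1.90 ± 0.14 above striatum. No regions overlapped, and hippocampus stood 0.85 ± 0.14 above striatum (exact permutation test, adjusted p = 0.0027).

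Among the surface proteins, Pdgfra (chr14:35527927-35581031, minus strand) had 179, 183 and 206 RPM in the lowest, median and highest cortex library, 78.8, 84.5 and 118 in hippocampus, and 45.2, 56.2 and 64.7 in striatum. It was 1.03 ± 0.11 higher in cortex than in hippocampus and 1.81 ± 0.10 higher in cortex than in striatum on the log2 scale. The regions did not overlap. Cspg4 (chr8:61532465-61567510, plus strand) had 33.9, 39.5 and 49.6 in cortex, 59.1, 66.5 and 87.5 in hippocampus, and 12.5, 14.9 and 16.2 in striatum. Its libraries did not overlap either. The log2 difference of cortex from hippocampus was -0.80 ± 0.09, and Cspg4 was 2.26 ± 0.09 higher in hippocampus than in striatum, a ratio of means of 4.84. The ratio of Cspg4 to Pdgfra reads was 0.756 ± 0.0527 (SD, n = 6) in hippocampus, 0.213 ± 0.0175 (n = 6) in cortex and 0.273 ± 0.0323 (n = 7) in striatum, so that these 2 precursor markers gave different orders of the regions.

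Mbp (chr18:79326738-79437310, plus strand) had 39.6, 41.7 and 50.9 RPM in the lowest, median and highest cortex library, 28.7, 29.9 and 34 in hippocampus, and 30.3, 38.1 and 42.8 in striatum. Striatum overlapped both other regions. Mbp was 0.52 ± 0.08 higher in cortex than in hippocampus on the log2 scale (exact permutation test, adjusted p = 0.0076), and the difference of hippocampus from striatum was -0.25 ± 0.08 (exact, adjusted p = 0.037). The difference of 0.27 ± 0.08 between cortex and striatum did not pass the exact permutation test (adjusted p = 0.051), while limma, which called 55.5% of all genes for this pair, passed it (adjusted p = 0.00863). The locus also makes Golli transcripts, which neurons and other cells carry, and RefSeq gave 2 start windows for Mbp, 79.6 kb apart. The deposited gene spans both kinds of transcript, and their shares of these reads were not tested.

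**Figure D2:**
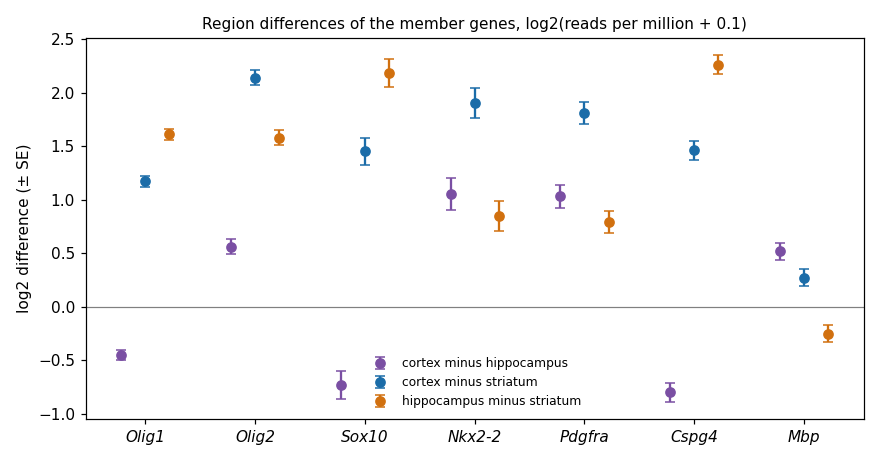
Log2 differences between regions (vertical axis, limma on log2(RPM + 0.1), bars ± SE) for the 7 genes (horizontal axis). Differences from striatum lie between 0.79 and 2.26 for 6 genes, whereas differences between cortex and hippocampus take both signs, from -0.80 for Cspg4 to 1.05 for Nkx2-2.

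All 7 genes passed the test between cortex and hippocampus, as did 41.6% of all genes. Of these, 4 were higher in cortex and 3 in hippocampus, beside 20.4% and 21.2% of all genes. Between cortex and striatum 6 passed, all higher in cortex, where 53.0% of all genes passed, 26.6% higher in cortex and 26.4% in striatum. Between hippocampus and striatum 7 passed, where 60.2% of all genes did, 6 of them higher in hippocampus (30.0% of all genes) and Mbp higher in striatum (30.1%). limma called 61.6% of all genes for this pair. The 6 genes other than Mbp were lower in striatum than in each other region, as were 3348 of the 16737 genes. Their libraries overlapped in no pair of regions, while 28.3%, 36.1% and 43.7% of all genes had no overlap between cortex and hippocampus, cortex and striatum, and hippocampus and striatum. The median log2 difference over the 7 genes was 0.52 for cortex minus hippocampus, 1.46 for cortex minus striatum and 1.58 for hippocampus minus striatum. Over the 11398 genes with at least 1 RPM the medians were 0.01, -0.02 and -0.02. Without Mbp the first of the members' medians was 0.06, since their differences between cortex and hippocampus ran both ways. With vehicle libraries alone every difference kept its sign, but the exact test can go no lower than 0.1 between cortex and hippocampus and 0.029 for the other pairs, and no member passed after adjustment. The call of Mbp between hippocampus and striatum was lost without hippocampus vehicle replicate 1, 2 or 3, hippocampus KCl replicate 3, striatum vehicle replicate 4 or 8, or striatum KCl replicate 1 or 5 (exact, adjusted p of 0.058 to 0.062). Between cortex and striatum Mbp passed without cortex KCl replicate 3, cortex vehicle replicate 2, striatum vehicle replicate 8 or striatum KCl replicate 5 (exact, adjusted p of 0.019 to 0.047).

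A pair of hippocampus libraries, vehicle replicate 2 and KCl replicate 1, stood above the other hippocampus libraries for 5 of the 7 genes. Pdgfra was at 116 and 118 RPM in them and at 78.8 to 85.1 in the others, Sox10 at 14.1 and 15 beside 9.61 to 10.6, and Cspg4 at 87.5 and 80.3 beside 59.1 to 67.3. Nkx2-2 (2.38 and 2.57 beside 1.99 to 2.23) and Olig2 (61.8 and 56.8 beside 48.9 to 56.7) were also at their highest there. Olig1 was at 178 and 174 in them beside 154 to 174, and Mbp at 28.7, the lowest hippocampus library, and 34, the highest. With both libraries left out, an alternative chosen after these values were seen, all 7 genes still passed between cortex and hippocampus, and 6 between hippocampus and striatum, where Mbp no longer did (adjusted p = 0.053). Across the 6 hippocampus libraries Sox10 and Pdgfra correlated with r = 0.985 and Pdgfra and Cspg4 with r = 0.938, and in cortex these pairs gave r = 0.382 and r = 0.904. These are descriptions over 6 libraries that share a region, with no test.

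No member gene passed the test for KCl. Across the regions the log2 difference of KCl from vehicle was -0.12 to 0.06 over the 7 genes, and none passed a permutation test within regions (exact, smallest adjusted p = 0.45), while 20.6% of all genes passed. No unadjusted exact p was under 0.05 (smallest 0.23). The 95% intervals from limma lay within -0.35 to 0.18 for all 7 genes. In single regions the differences ran from -0.24 (Nkx2-2 in striatum) to 0.16 (Olig2 in striatum), and limma called none of the 21 (smallest adjusted p = 0.28), with 2.29%, 2.19% and 14.4% of all genes called in cortex, hippocampus and striatum. The approximate intervals of Olig2 and Sox10 in cortex and of Mbp in hippocampus left out 0, before adjustment and with the same narrow multiplier. Olig2 in cortex came nearest, at 77 ± 3.65 RPM in vehicle and 84.5 ± 2.63 in KCl libraries (SD, n = 3 each). The exact test in a region of 3 against 3 libraries can go no lower than 0.1. The effect of KCl did not differ between regions for any member by an interaction test in limma (smallest adjusted p = 0.42).

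Further genes of the lineage were taken as lists. Of 15 further precursor genes 14 had recovered reads. Of these, 10 were higher in cortex than in hippocampus and none lower, beside 20.4% and 21.2% of all genes. Against striatum 10 were higher and 1 lower in cortex, beside 26.6% and 26.4% of all genes. Between hippocampus and striatum 6 were higher in hippocampus, 3 lower and 5 not called, beside 30.0% higher and 30.1% lower over all genes. The median log2 differences were 0.72, 0.91 and 0.26. The same shares of all genes stand beside the counts of the lists that follow. Gpr17, a receptor of precursors about to mature, was at 12.4 ± 1.76 RPM in cortex (SD, n = 6), 3.52 ± 1.91 in hippocampus (n = 6) and 2.87 ± 0.941 in striatum (n = 7). Sox8, a relative of Sox10, was at 62.2 ± 6.83, 23.7 ± 2.41 and 15.4 ± 2.09. Nkx6-2, a homeodomain factor, went the other way, at 0.083 ± 0.0453, 0.0175 ± 0.0191 and 0.623 ± 0.16. The summed level of the 14 genes was 2460 to 2830 RPM in cortex libraries, 1990 to 2300 in hippocampus and 1400 to 1500 in striatum. Ptprz1, a receptor-type phosphatase, and Bcan, the proteoglycan brevican, held most of it. Without them, a choice made after their values were seen, the sum was 635 to 796 in cortex, 311 to 430 in hippocampus and 386 to 452 in striatum. Tnr (tenascin-R) at 140 ± 18.5, 61.5 ± 7.05 and 130 ± 6.96 and Pcdh15 (a protocadherin) at 101 ± 9.45, 40.6 ± 9.49 and 80.6 ± 6.64 RPM, also named after their values were seen, were lower in hippocampus than in striatum by the test.

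Of 16 further myelin genes with recovered reads (20 on the list), 11 were higher and 1 was lower in cortex than in hippocampus, with a median log2 difference of 0.81. Against striatum 8 were higher and 3 lower in cortex (median 0.36), and 3 were higher and 8 lower in hippocampus (median -0.51). Enpp6, an enzyme of newly formed oligodendrocytes, was at 3.12 ± 0.85 RPM in cortex, 0.114 ± 0.0708 in hippocampus and 1.1 ± 0.442 in striatum. Cldn11, a tight junction protein of myelin, was at 2.2 ± 0.765, 0.102 ± 0.0568 and 0.647 ± 0.305. Mag, myelin-associated glycoprotein, was at 1.97 ± 0.417, 0.12 ± 0.114 and 1.72 ± 0.416. Mal, at 0.0662 ± 0.0605, 0.0525 ± 0.0474 and 0.0982 ± 0.0486, was called in no pair. The summed level of the 16 genes was 273 to 344 in cortex, 138 to 171 in hippocampus and 172 to 206 in striatum. This sum and Mbp were lowest in hippocampus, while the 6 other members were lowest in striatum. For the sum this order rested on 1 gene, Tspan2. Tspan2, at 79 ± 4.6, 44.1 ± 1.98 and 90.5 ± 1.98 RPM, held the largest part of the hippocampus and striatum sums. Among the 3 genes higher in hippocampus than in striatum were Bcas1 (104 ± 11.9, 38.1 ± 9.77 and 25 ± 5.4) and Myrf (19 ± 3.54, 12.2 ± 1.12 and 8.1 ± 0.96). These 3 genes were named after their values were seen. The mean sum was 150 RPM in hippocampus and 190 in striatum, a smaller gap than that of Tspan2 alone. The other genes of the list together were thus not lower in hippocampus than in striatum.

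Some markers of other cell types moved with these differences. Of 11 astrocyte genes, 11 were higher in cortex and 10 in hippocampus than in striatum, and 6 were higher and 4 lower in cortex than in hippocampus, with a summed level of 2210 to 2440 RPM in cortex, 2500 to 2710 in hippocampus and 647 to 717 in striatum. Gfap, the astrocyte filament protein, was at 41.2 ± 8.24 in cortex, 757 ± 10.8 in hippocampus and 3.47 ± 0.583 in striatum. Without Gfap, left out after its values were seen, the other 10 genes summed to 2160 to 2390 in cortex, 1760 to 1940 in hippocampus and 643 to 714 in striatum. Pericyte, fibroblast and endothelial genes, which bear on Pdgfra and Cspg4 because fibroblasts and pericytes also make these proteins, summed to 23.7 to 28.3 in cortex, 19.8 to 22.1 in hippocampus and 6.44 to 7.87 in striatum over 7 genes. Of these 7, 5 were higher and 2 lower in cortex than in striatum, and 4 were higher and 0 lower in hippocampus than in striatum. Dcn, of fibroblasts, was at 12.1 ± 1.3, 3.55 ± 0.31 and 0.0686 ± 0.0714, and Lum at 2.1 ± 0.375, 7.25 ± 0.33 and 0.0102 ± 0.0174. The 2 lower in cortex than in striatum were Col1a1 (0.57 ± 0.401, 1.82 ± 0.793 and 1.56 ± 0.517) and Rgs5 (0.0206 ± 0.0275, 0.119 ± 0.0702 and 0.104 ± 0.0608). The 8 microglial genes were near 0, summing to means of 0.443, 0.359 and 0.145 RPM, with Cx3cr1 at 0 in every cortex library. Dividing progenitor genes (6) summed to 168 to 181, 164 to 176 and 137 to 150, with Mki67 at 40.2 ± 1.7, 37.5 ± 1.94 and 26.6 ± 3.28. In cortex 4 of them were higher and 2 lower than in striatum. The 2 lower ones were Nes (19.2 ± 1.79, 28.3 ± 1.71 and 21.4 ± 0.807) and Sox2 (42.7 ± 1.89, 39.7 ± 1.17 and 45.7 ± 1.04). Neuron genes (8) summed to 5070 to 5400, 5310 to 5610 and 4710 to 5100. The list of ventral forebrain and interneuron genes (7) was higher in striatum, at 2780 to 3190 beside 294 to 357 in cortex and 344 to 391 in hippocampus. Gad1 and Gad2, which GABA neurons in general make, held most of this, and the other 5 genes summed to 242 to 275, 71.5 to 110 and 62.3 to 78.4 in striatum, cortex and hippocampus. Of the region lists, the 6 cortex genes stood at 670 to 710 in hippocampus (other regions above), the 2 hippocampus genes at 171 to 179 in hippocampus and at most 25.3 elsewhere, and the 6 striatum genes at 458 to 519 in striatum and at most 38 elsewhere. The part of any of these cell types in the members' levels was not tested.

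**Figure D3:**
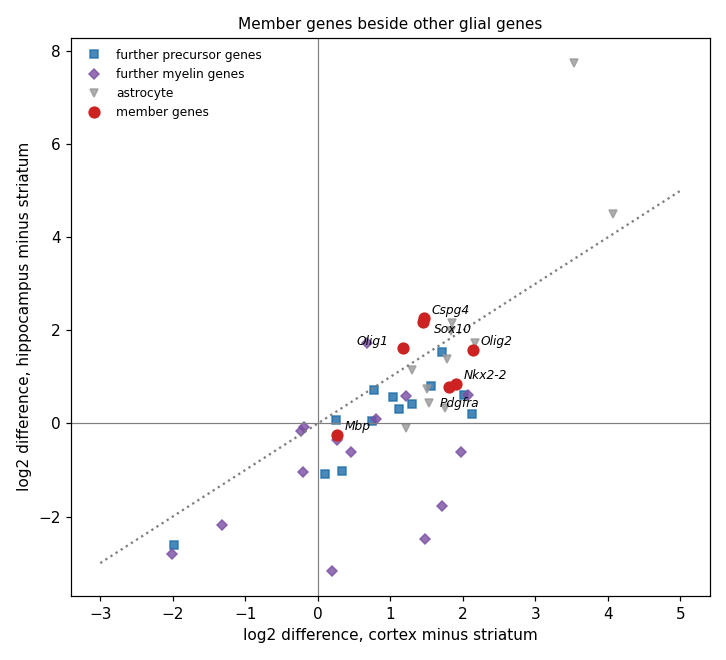
Log2 difference from striatum in cortex (horizontal axis) and in hippocampus (vertical axis) for the 7 member genes and for precursor, myelin and astrocyte genes with at least 100 reads in all. Points above the dotted diagonal were higher in hippocampus than in cortex, as Cspg4, Sox10 and Olig1 were. All precursor genes shown and most myelin genes lie under it.

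Over the 19 libraries, the genes with the profiles most like those of the members were mostly not other members. The exceptions were Sox10 and Cspg4, each among the 5 genes most like the other (Pearson r = 0.984). For Sox10 and Cspg4 alike the nearest 5 held Agt, Cpt1a and Cobll1, and Agt had no read in striatum beside 8.43 RPM in cortex and 19.2 in hippocampus. For Pdgfra they were Reep3, Enpp2, Cemip2, Pde1c and Slc4a4 (r of 0.985 to 0.992), and for Nkx2-2 they were Kcne5, Pik3cd, Arhgap35, Apc2 and Pde1c (0.981 to 0.986). For Olig2 they were Cdh12, Chd7, Inhbb, Dock9 and Serinc5 (0.987 to 0.989), and for Olig1 they were Zhx3, Lrrc55, Apba2, Clu and Shank3 (0.99 to 0.993). For Mbp they included Ugt8 (0.953), Enpp6 (0.931), Plxnb3 (0.909) and Cldn11 (0.909), of which Ugt8, Enpp6 and Cldn11 were on the myelin list. Such correlations run over libraries that share a region, and many genes follow the same differences between regions. Among the members themselves r over all libraries ranged from 0.984 (Sox10 and Cspg4) and 0.98 (Nkx2-2 and Pdgfra) to -0.324 (Cspg4 and Mbp), with 0.689 for the neighbours Olig1 and Olig2.

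The 187 TAPEs paired with the members were mostly faint, with a median of 18 reads over all libraries and a highest value of 1132. A mean of at least 0.05 CPKM was reached by 30 of them (16%, beside 6.79% of all TAPEs), and these were tested with limma on log2(CPKM + 0.05). Of the 30, 16 (53.3%) depended on region by an F-test adjusted over all 1870 TAPEs tested, of which 48.8% passed, so the share among the members' TAPEs was near the background. Of the 16, 4 had a mean of 0.05 CPKM or more in 1 region only and so could enter the test only where that region was high. They are given as descriptions. These 16 lay at every locus, with 3 at the shared Olig1 and Olig2 locus, 3 at Nkx2-2, 2 at Sox10, 4 at Pdgfra, 2 at Cspg4 and 2 at Mbp. In the pairwise tests 7 of the 30 were higher and 6 lower in cortex than in striatum (background 16.6% each way), and 4 were higher and 6 lower in hippocampus than in striatum (background 16.9% and 26.1%). Against hippocampus 3 were higher and 2 lower in cortex (background 8.98% and 5.88%). Of the 226 pairs, 16 (7.08%) had a deposited correlation of TAPE with gene above 0.5 and 11 (4.87%) one under -0.5, beside 5.3% and 2.68% of all pairs.

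**Figure D4:**
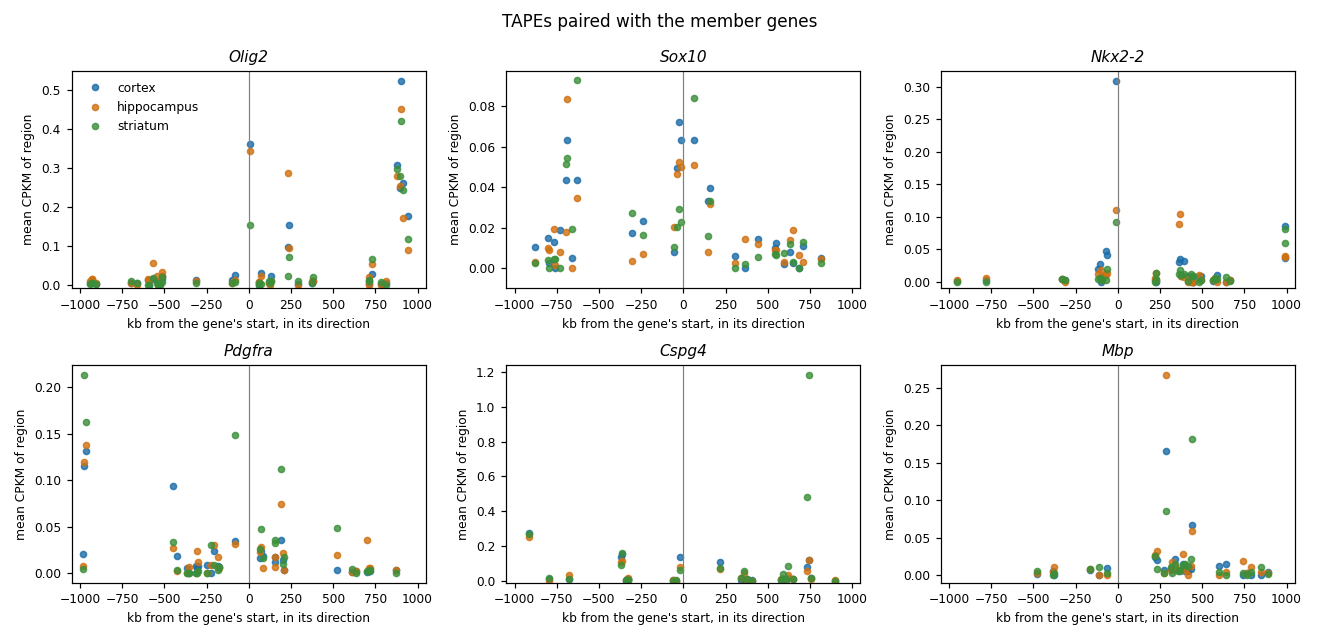
Mean CPKM in each region (vertical axes) of every TAPE paired with 6 members, against its distance in kb from the gene's start (horizontal axes, positive past the start). Olig1 is left out since it shares 39 of its 40 TAPEs with Olig2. Single TAPEs stand out 7880 bp before Nkx2-2, with cortex highest, and 742836 bp past Cspg4, with striatum highest.

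At the Olig locus, the TAPE nearest to Olig2 (chr11:31396294-31398827, 8046 bp past its start and 30798 bp before that of Olig1) was also the one with the highest correlation with Olig2 (deposited r = 0.794) and had r = 0.724 with Olig1. It had 0.261, 0.361 and 0.476 CPKM in the lowest, median and highest cortex library, 0.276, 0.32 and 0.475 in hippocampus, and 0.08, 0.143 and 0.219 in striatum. All striatum libraries lay under all others, and cortex and hippocampus overlapped. The log2 difference was 1.04 ± 0.18 for cortex minus striatum (limma, adjusted p = 3.65e-05) and 0.97 ± 0.18 for hippocampus minus striatum (adjusted p = 6.61e-05). Within regions its correlation with Olig2 was -0.142, 0.0296 and -0.526 (cortex, hippocampus and striatum). Of the 24 genes paired with it, 2 had a higher correlation than Olig2, the highest being Itsn1, 495929 bp away.

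The TAPE most correlated with Olig1 (chr11:31617375-31620085, r = 0.877) lay 190372 bp past its start and had the order of regions of that gene. It was chosen out of 40 paired TAPEs by this correlation, which largely sets that order. Its differences between regions and their p-values are therefore descriptions. It had 0.0397, 0.0814 and 0.177 CPKM in the lowest, median and highest cortex library, 0.216, 0.293 and 0.344 in hippocampus, and 0, 0.0141 and 0.052 in striatum. Every hippocampus library was above all others. The log2 difference was -1.29 ± 0.25 for cortex minus hippocampus and 2.26 ± 0.24 for hippocampus minus striatum (limma, adjusted p = 0.000315 and 4.68e-09). Its correlation with Olig2 was 0.366. The gene nearest to it was Ifnar1, an interferon receptor, and Ifngr2 had the highest correlation with it (0.915). The TAPE at chr11:32329111-32331094, 901745 bp from the start of Olig1, was 0.80 ± 0.26 higher in cortex than in hippocampus (adjusted p = 0.0349), a call lost without cortex vehicle replicate 1, 2 or 3, hippocampus vehicle replicate 1 or hippocampus KCl replicate 1, 2 or 3 (adjusted p of 0.0508 to 0.115). The brightest TAPE of the locus, at chr11:32290038-32292246 with 0.462 CPKM, did not pass the F-test (adjusted p = 0.31), with regional means of 0.523, 0.451 and 0.419 in cortex, hippocampus and striatum. The TAPE nearest to Olig1 (chr11:31448854-31450593) held 7 reads in all.

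At the Nkx2-2 locus, the TAPE at chr3:141417453-141420647, 7880 bp before the start, was nearest, brightest and most correlated (r = 0.903). It had 0.256, 0.311 and 0.356 CPKM in the lowest, median and highest cortex library, 0.0828, 0.103 and 0.146 in hippocampus, and 0.042, 0.0972 and 0.141 in striatum. Every cortex library was above every other library, as for the gene. Cortex was 1.18 ± 0.20 above hippocampus (limma, adjusted p = 5.35e-05) and 1.36 ± 0.19 above striatum (adjusted p = 1.38e-06), while hippocampus and striatum differed by 0.18 ± 0.19 (adjusted p = 0.483). Within regions its correlation with the gene was -0.713, 0.898 and 0.327 in the same order, and Kiz, 351027 bp away, had a higher correlation over all libraries (0.941). A TAPE 366108 bp past the start (chr3:141044090-141046033), for which Kiz was the nearest gene, was higher in hippocampus, with a lowest, median and highest library of 0.0797, 0.101 and 0.144 CPKM beside 0.0173, 0.0331 and 0.0567 in cortex and 0, 0.0181 and 0.0394 in striatum, and it reached the limit through hippocampus alone. A TAPE at chr3:140420694-140422369, 989638 bp past the start, had a log2 difference of -0.57 ± 0.22 for hippocampus minus striatum (adjusted p = 0.0338), a call lost without hippocampus vehicle replicate 3, hippocampus KCl replicate 1, 2 or 3, or striatum vehicle replicate 2, 4 or 6 (adjusted p of 0.0501 to 0.0766).

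**Figure D5:**
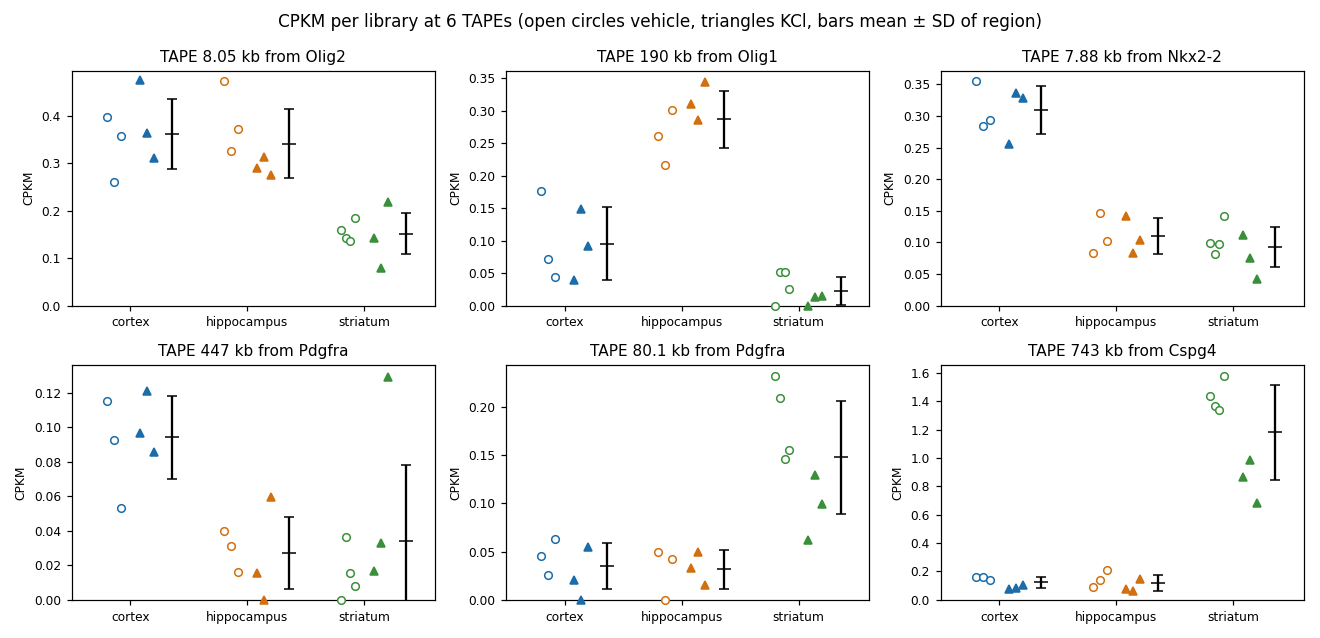
CPKM (vertical axes, from 0) in each library at 6 TAPEs, named by their distance from a member gene. Open circles are vehicle and triangles KCl libraries, and bars give the mean ± SD of a region, cut at 0. Striatum libraries lie lowest near Olig2, hippocampus libraries highest 190372 bp from Olig1, cortex libraries highest near Nkx2-2, and striatum libraries highest 80094 bp from Pdgfra and 742836 bp from Cspg4.

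At the Pdgfra locus the called TAPEs ran in opposite directions. The TAPE most correlated with Pdgfra (chr14:36026974-36029201, 447057 bp before the start, r = 0.612) had 0.0533, 0.0948 and 0.121 CPKM in the lowest, median and highest cortex library, 0, 0.0236 and 0.0598 in hippocampus, and 0, 0.0169 and 0.129 in striatum. It reached the limit of 0.05 CPKM through cortex alone, so its log2 differences of 0.93 ± 0.26 from hippocampus and 0.88 ± 0.25 from striatum are descriptions. Of the striatum libraries KCl replicate 7 alone reached the cortex range, and hippocampus overlapped it through its highest library. The TAPE at chr14:35660064-35662186, 80094 bp before the start, was highest in striatum, where Pdgfra was lowest, at 0.0623, 0.146 and 0.232 CPKM beside at most 0.063 in cortex and 0.05 in hippocampus, with 1 striatum library inside the cortex range, and it reached the limit through striatum alone. Its correlation with Pdgfra was -0.609 and with Gsx2, a factor of striatal progenitors 8416 bp away, 0.728. A TAPE 192064 bp past the start (chr14:35387989-35389945) and one 979087 bp before it (chr14:36559221-36561015) were also lower in cortex than in striatum, with log2 differences of -0.91 ± 0.29 (adjusted p = 0.0133) and -0.65 ± 0.25 (adjusted p = 0.0407). The former call was lost with vehicle libraries only (adjusted p = 0.252) and without the limit on low TAPEs (adjusted p = 0.0554). The latter call was lost without cortex KCl replicate 1 or 2, cortex vehicle replicate 1, striatum vehicle replicate 4, 6 or 8, or striatum KCl replicate 1 or 7 (adjusted p of 0.0502 to 0.127). The TAPE nearest to Pdgfra (chr14:35512723-35514032, 67654 bp away) held 32 reads.

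At the Sox10 locus 3 TAPEs lay within 36 kb before the start. The nearest (chr7:120417364-120418734, 14526 bp) and the most correlated (chr7:120437018-120440079, 35025 bp, r = 0.542) were under the limit of 0.05 CPKM. That at chr7:120428259-120430926, 26070 bp away, had 0.0725 ± 0.0156 CPKM in cortex (SD, n = 6), 0.0523 ± 0.0297 in hippocampus (n = 6) and 0.0293 ± 0.0255 in striatum (n = 7), with a log2 difference of 0.69 ± 0.23 for cortex minus striatum (limma, adjusted p = 0.0212). That call was lost without striatum KCl replicate 5 or 7 (adjusted p of 0.0558 and 0.0555). Its correlation with Sox10 was 0.47 over all libraries and 0.903, 0.61 and 0.67 in cortex, hippocampus and striatum. A TAPE 632014 bp from the start (chr7:121034603-121036470) had a log2 difference of -0.81 ± 0.27 for hippocampus minus striatum and reached the limit through striatum alone, and it had r = -0.552 with Sox10. The brightest TAPE of the locus (chr7:120338984-120340471) did not pass the F-test (adjusted p = 0.629).

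At the Cspg4 locus both called TAPEs were highest in striatum, against the order of the gene. The TAPE at chr8:62274612-62275990, 742836 bp past the start, had a lowest, median and highest library of 0.681, 1.34 and 1.58 CPKM in striatum, 0.0781, 0.123 and 0.163 in cortex, and 0.0639, 0.114 and 0.21 in hippocampus. The log2 difference of cortex from striatum was -2.82 ± 0.21 (limma, adjusted p = 8.58e-12). Its correlation with Cspg4 was -0.77, and that with Rpp25, 8035 bp away, was 0.946. The TAPE at chr8:62262656-62264523, with a mean of 0.483 CPKM in striatum and 0.0791 in cortex, had r = -0.774 with Cspg4 and 0.941 with Clk3. The TAPE nearest to Cspg4 (chr8:61510498-61512502, 20965 bp before the start) had mean levels of 0.14 ± 0.0571, 0.0804 ± 0.0679 and 0.0622 ± 0.0266 CPKM in the 3 regions and did not pass the F-test (adjusted p = 0.0682). No TAPE had a correlation above 0.5 with Cspg4, and the highest, 0.473 at chr8:61205253-61208301, rested on 32 reads.

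At the Mbp locus no TAPE had a correlation above 0.5 with the gene either. The TAPE nearest to Mbp (chr18:79261078-79262551) and the most correlated (chr18:79927902-79930158, r = 0.416) held 7 and 14 reads. The 2 TAPEs past the limit took different orders. That at chr18:79610833-79612645, 285001 bp past the start, was 1.23 ± 0.29 higher in hippocampus than in striatum (limma, adjusted p = 0.000848), and that at chr18:79767754-79770622, 4420 bp from Zfp516, had a difference of -1.03 ± 0.23 (adjusted p = 0.000383). Mbp itself was lowest in hippocampus, and its correlations with them were -0.353 and -0.0815.

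KCl was called at 1 of the 30 TAPEs, in striatum, where 1.23% of all TAPEs tested were called, beside 0.321% in cortex and 0.0535% in hippocampus. The called TAPE, the one near Rpp25 at 742836 bp from Cspg4, had 1.44, 1.37, 1.34 and 1.58 CPKM in the 4 striatum vehicle libraries and 0.863, 0.989 and 0.681 in the 3 KCl libraries. These did not overlap, and the log2 difference was -0.74 ± 0.15 (limma, adjusted p = 0.0305). The call was lost without any 1 of the 7 striatum libraries. Whether the effect at this TAPE differed from that in the other regions is not given here. No TAPE was called in cortex or hippocampus by limma, with 3 and 2 of the 30 at an unadjusted p under 0.05. The log2 difference was under 0 at 22, 22 and 24 of the 30 TAPEs (cortex, hippocampus and striatum), with medians of -0.19, -0.33 and -0.30 beside -0.09, -0.16 and -0.17 over all TAPEs tested.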

How the data were processed

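The data are 19 total RNA-seq libraries of rat cortical, hippocampal and striatal neuron cultures, grouped by their titles into region and treatment. Per the methods and the labels, the authors trimmed reads (Trim Galore 0.4.5), aligned them with STAR to Rn6 (SAMtools 1.9 among the listed tools), defined TAPEs from pooled libraries and counted reads of either strand in SeqMonk without removing duplicates. The deposited TAPE values are RPKM (called CPKM by the study), and the deposited score of each pair is a Pearson correlation of TAPE with gene that the authors computed over all libraries or 1 region. No authors' test result was used.

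CPKM values turned into whole reads when scaled by length and library total (100% of values in each library). Each gene's standardised profile was solved by least squares from its correlations, and the whole reads that give that profile were found by lattice reduction. Profiles were solved for 16737 of 17715 symbols (94.5%), the others having too few TAPEs (910) or several positions (68). The reads gave back every profile to within 0.001 reads and the deposited correlations to within 9.6e-15. On simulated profiles the reads were recovered exactly. Reads are known up to a whole factor common to a gene's libraries, and whether introns were counted is not given in the sources used here. Mates and PCR copies may be counted more than once, so reads are not independent molecules.

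Genes were compared by exact two-sided permutation tests of the mean profile (KCl: permuted within regions, 14000 arrangements) and limma 3.58.1 (R 4.3.3) on log2(RPM + 0.1). TAPEs with a mean of at least 0.05 CPKM (1870 of 27538) were compared by limma on log2(CPKM + 0.05), a scale that understates the change of low TAPEs. All p-values were adjusted (Benjamini-Hochberg) over all genes or TAPEs tested, with a threshold of 0.05. The region F-test of TAPEs and the permutation test of genes between hippocampus and striatum were tried on simulated data first. No such trial is given for the other tests. Replicates of a group differed by more than sampling noise (chi-square per degree of freedom over genes of 3.35 to 21.7), so none was counted as a copy.

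Named TAPEs are, for each member, the nearest, the most correlated, the brightest, those that passed the region F-test (at most 5 a locus) and those called for KCl. Named genes of the other lists are the 3 with the largest called difference and 1 not called, and of similar genes the 5 with the highest r, some of which are not reported here. The members and lists were chosen with earlier results of these data known. Alternatives were other pseudocounts and filters, voom, centring, treatment as a covariate, vehicle libraries only, rank and stratified permutations, a replicate block and single libraries left out.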

Additional observations from a re-analysis of the deposited data

Results flagged for a closer look

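Each group of 4 to 7 libraries was checked for a library set apart from the rest by Dixon's criterion, over the 7 genes. In 0 of 28 such groups did a library stand apart, where chance gives about 1 in 20. The criterion looks for a single library. It can miss a pair that stands together, as the hippocampus pair described above did for Pdgfra and Sox10. The named TAPEs have no result of this check, and the values that follow are descriptions. In the TAPE nearest to Cspg4 (chr8:61510498-61512502), striatum vehicle replicate 6 was at 0.12 CPKM, with the other striatum vehicle libraries at 0.0517 to 0.0603. This was the highest value among the 4 vehicle libraries and among all 7 striatum libraries. In the TAPE most correlated with Pdgfra (chr14:36026974-36029201), striatum KCl replicate 7 was at 0.129 CPKM, with the other striatum libraries at 0 to 0.0362. Without it the difference of cortex from striatum rose from 0.88 to 1.09 on the log2 scale, a description since this TAPE reached 0.05 CPKM through cortex alone. No member gene passed the test of a KCl effect that differs between regions (limma, smallest adjusted p = 0.42). No result of that test is given here for the named TAPEs.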

How the results depend on the processing

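The count of member genes called stayed at 7 between cortex and hippocampus under every alternative but vehicle libraries only, where it was 0 in each of the 3 pairs of regions. That design cannot pass the adjusted threshold between cortex and hippocampus. Leaving out libraries gave 7 to 7 genes for that pair, 6 to 7 for cortex and striatum and 6 to 7 for hippocampus and striatum, with Mbp the gene that changed. No gene or TAPE reversed its direction under any alternative run. The 16 region-dependent TAPEs became 9 with a limit of 0.1 CPKM (19 tested), 9 with vehicle libraries only and 11 to 16 with single libraries left out. Of the 27 called differences at named TAPEs 12 were lost with vehicle libraries only and 7 without the limit on low TAPEs, where all TAPEs were adjusted for. The single KCl call in striatum became 0 with a pseudocount of 0.01, without the limit on low TAPEs, with libraries centred, in a single fit of all 6 groups, and without any 1 of the 7 libraries (0 to 0). The count of member genes called for KCl was 0 throughout.

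Replicate numbers gave no pairing, since deviations of same-numbered vehicle and KCl libraries correlated by -0.15, 0.11 and -0.20 in cortex and -0.15, -0.13 and 0.05 in hippocampus, and striatum shares no number between treatments. With the number as a replicate block, 10 TAPEs in place of 16 depended on region, and KCl calls in cortex and hippocampus stayed at 0. In the 3 pairs of regions 7, 7 and 6 genes were called. These gene counts come from limma and not from the permutation test. Without the block limma also called Mbp between cortex and striatum (limma, adjusted p = 0.00863). The block lost 8 of the 27 called differences at named TAPEs, among them hippocampus minus striatum at chr18:79610833-79612645 (1.23 to 0.55 on the log2 scale, adjusted p = 0.382) and cortex minus striatum at chr14:35387989-35389945 (adjusted p = 0.207). Striatum replicates 4, 5, 6, 7 and 8 share their numbers with no other library. In this fit, differences from striatum rest on striatum vehicle replicate 2 and KCl replicate 1 alone. It cannot tell an effect of replicate from the loss of the other striatum libraries. The planned negative binomial count test was not run on TAPE reads. Of the 187 TAPEs 30 reached the limit of 0.05 CPKM, and reads carry no molecular identifiers.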
